A study of Homo sapiens with 3 samples.

Results

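Non-coding snoRNA host genes are genes whose introns carry small nucleolar RNAs while their spliced exons encode no known protein. The set described here is GAS5, ZFAS1, SNHG1, SNHG3, SNHG5, SNHG6, SNHG8, SNHG12, SNHG15 and SNHG16. They were taken by name, through their Ensembl identifiers, from a table of RNA recovered with the DNA-binding protein CTCF. All 10 were listed among its 17201 genes and 0 were absent. Their classes in the table matched the label: 5 were processed transcripts, 2 antisense genes, 2 lincRNAs (long intergenic non-coding RNAs) and 1 a sense intronic gene, and none (0) was annotated as protein-coding.

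The cells were U2OS, a human osteosarcoma line, with 1 condition. The labels name no genetic change, and no control precipitation was used here. Per the labels' protocols they took up 4-thiouridine at 400 µM for 16 to 24 h and were irradiated at 365 nm with 400 mJ/cm2, which links the labelled RNA to proteins that touch it. CTCF was then precipitated from nuclear lysate and the attached RNA was sequenced (PAR-CLIP). The labels name 3 samples, 2 biological replicates made with different antibody lots and their merge, and only the table of the merge (1 sample) was used here. It gives 1 whole-number count per gene interval, and the intervals span introns. The counts are not scaled for depth or length, run from 6 upward with a median of 31, and sum to 1322047. With 1 merged sample no value has a replicate error and no p-value was computed. Intervals given below are exact 95% intervals that cover counting error only. Without RNA abundance or a control precipitation, more RNA in the nucleus and more RNA bound to CTCF cannot be told apart.

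Of 10 mesenchymal and bone markers, 7 were listed, led by FN1 with 1277 counts, CD44 with 632 and COL1A1 with 602, while COL1A2, SPP1 and BGLAP were absent. SPARC had 260 counts, RUNX2 164, VIM 67 and the bone marker ALPL only 8, near the lowest count listed. None (0) of 6 markers of blood, epithelial, liver, glial and endothelial cells was listed.

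Small nucleolar RNAs guide the chemical modification of ribosomal and other RNAs: those of the box C/D class direct ribose methylation, and those of the box H/ACA class direct pseudouridylation. In human cells most are cut out of introns after splicing, so that 1 transcript gives both a host RNA and its snoRNAs. Transcripts of many hosts begin with a run of pyrimidines, as those of ribosomal protein genes do, and the spliced non-coding RNA of several is short-lived because translation exposes it to nonsense-mediated decay. GAS5 is known for RNA that accumulates when growth stops.

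The 10 genes differed widely. Their counts ran from 18 to 314 with a median of 82.5, beside a median of 31 over all listed genes and 17 over the 2809 listed long non-coding genes. Together they held 1301 counts, or 0.0984% of the summed count, and the first 3 genes held 66.9% of those. Of the 10, 5 had 100 counts or more. Over all listed genes 20.5% reached that count, and over the long non-coding genes 8.69% did. These genes were picked as well-known hosts with earlier results of the same table in view, so the contrast describes the set and supports nothing beyond it.

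**Figure D1:**
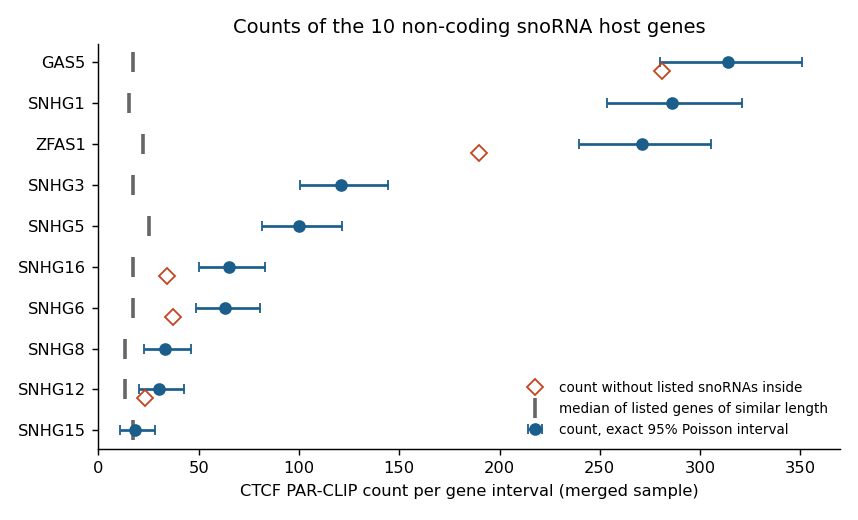
Counts of the 10 host genes in the merged sample (horizontal axis, counts), with exact 95% Poisson intervals as bars. Diamonds give the count left after listed snoRNAs inside the interval are subtracted, and vertical ticks the median count of listed genes of similar length. GAS5, SNHG1 and ZFAS1 stand apart at 271 to 314 counts, and SNHG15 at 18 lies near its tick at 17.

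GAS5, the host of a large group of box C/D snoRNAs, had the highest count. It held 314 counts (280 to 351) over 4.09 kb of chromosome 1 (hg19, 173833038 to 173837127). SNHG1, another host of several box C/D snoRNAs, held 286 (254 to 321) over 3.25 kb of chromosome 11 (62619460 to 62622708). ZFAS1, which hosts the SNORD12 family and is annotated as antisense, held 271 (240 to 305) over 11.1 kb of chromosome 20 (47894715 to 47905797). These 3 counts were not resolved from each other. In the pair GAS5 and SNHG1, GAS5 held 52.3% of the counts (48.3 to 56.4%), and in the pair SNHG1 and ZFAS1, SNHG1 held 51.3% (47.1 to 55.6%), so both intervals include an equal share. GAS5 held 53.7% of its pair with ZFAS1 (49.5 to 57.8%), which includes an equal share too. With the counts of listed snoRNAs inside the intervals subtracted, ZFAS1 dropped to 190 and GAS5 to 281, and GAS5 then held 59.7% (55.1 to 64.1%). This took out all 3 snoRNAs known for ZFAS1 but only 1 listed in GAS5, for which 10 are known. The new order may therefore depend on which snoRNAs were listed.

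A step followed. SNHG3, the host of SNORA73A and SNORA73B, had 121 counts (100 to 145) over 4.91 kb of chromosome 1 (28832492 to 28837404), below ZFAS1, to which 69.1% of the counts of both genes belonged (64.3 to 73.7%). SNHG5, the host of SNORD50A and SNORD50B, had 100 counts (81.4 to 122). Its interval on chromosome 6 (86370710 to 86388451) was the longest of the set at 17.7 kb. SNHG3 and SNHG5 were not resolved, with 54.8% of the pair's counts in SNHG3 (47.9 to 61.4%).

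SNHG16, which hosts the SNORD1 family, had 65 counts (50.2 to 82.8) over 3.99 kb of chromosome 17 (74553848 to 74557833). SNHG6, the host of SNORD87, had 63 (48.4 to 80.6) over 3.86 kb of chromosome 8 (67833919 to 67837776). These were not resolved, with 50.8% of the pair's counts in SNHG16 (41.8 to 59.7%). SNHG5 lay above SNHG16 with 60.6% of the pair's counts (52.7 to 68.1%).

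The last 3 genes were the lowest. SNHG8, the host of SNORA24, had 33 counts (22.7 to 46.3) in the shortest interval, 1.115 kb of chromosome 4 (119199864 to 119200978). SNHG12, which hosts both box H/ACA and box C/D snoRNAs, had 30 (20.2 to 42.8) over 2.47 kb of chromosome 1 (28905050 to 28907522). SNHG15, the host of SNORA9, had 18 (10.7 to 28.4) over 3.62 kb of chromosome 7 (45022622 to 45026236). SNHG6 held 65.6% of the counts of its pair with SNHG8 (55.2 to 75.0%), and that step was lost without listed snoRNAs, at 37 and 33 counts (52.9%, 40.6 to 64.9%). The neighbours SNHG8 and SNHG12, and SNHG12 and SNHG15, were not resolved, while SNHG8 held 64.7% of its pair with SNHG15 (50.1 to 77.6%). In all, 3 of the 9 neighbouring pairs in the order were resolved beyond counting error. Without listed snoRNAs the number was again 3, with GAS5 above ZFAS1 gained and SNHG6 above SNHG8 lost. Both changes may depend on which snoRNAs were listed.

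Longer intervals collect more counts, so levels were compared between genes per kb of interval. On that scale SNHG1 came first with 88.0 counts per kb (78.1 to 98.8) and GAS5 next with 76.8 (68.5 to 85.8). SNHG8 moved from the eighth place to the third with 29.6 (20.4 to 41.6). SNHG3 and ZFAS1 had almost the same value, 24.6 (20.4 to 29.4) and 24.5 (21.6 to 27.5). SNHG6 and SNHG16 both had 16.3 counts per kb, and SNHG12 had 12.1. SNHG5, spread over its long interval, fell to 5.64 (4.59 to 6.86), close to SNHG15 at 4.98 (2.95 to 7.87). The median of the set was 20.4 counts per kb, beside 1.78 over all listed genes, 1.54 over protein-coding genes and 1.28 over long non-coding genes. These medians are not matched for length: the median interval was 3.92 kb in the set and 30.15 kb in protein-coding genes. Counts rise less than in proportion to length, so short intervals have higher values per kb. Listed genes about as long as SNHG8 had a median of 13 counts, and those about as long as SNHG5 one of 25. The distance between the highest and the lowest gene was as wide per kb (17.7-fold) as in counts (17.4-fold).

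**Figure D2:**
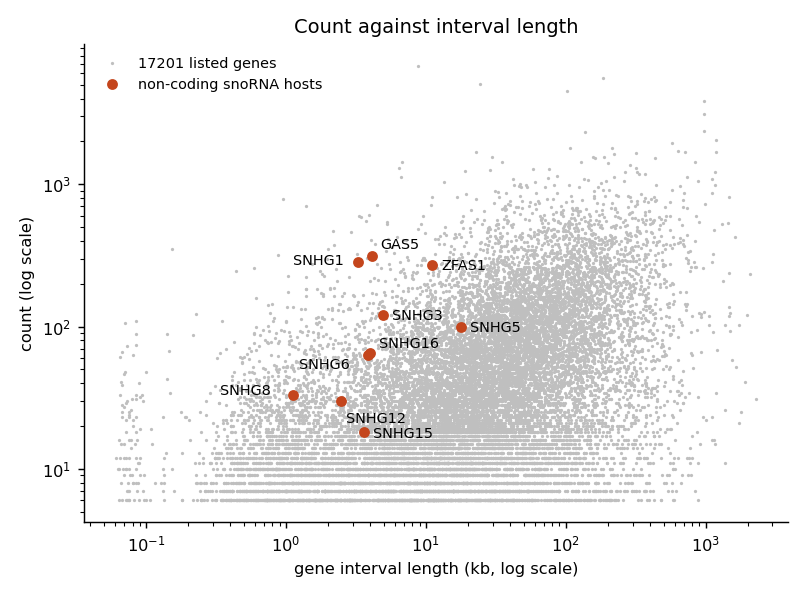
Count against interval length, both on log scales, for the 17201 listed genes (grey) and the 10 non-coding snoRNA hosts (red). GAS5, SNHG1 and ZFAS1 lie near the upper edge of genes of their length, and SNHG15 lies in the middle.

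Each gene was also ranked by percentile among the listed genes nearest to it in length, which were divided into 50 groups of about equal size. All 10 lay above the median of their group, where 50% of listed genes do. GAS5 and ZFAS1 were at the 99.3rd percentile and SNHG1 at the 98.98th, with counts 18.5, 12.3 and 19.1 times the group median. SNHG3 was at the 94.6th, SNHG16 at the 92.3rd and SNHG6 at the 91.6th. SNHG5, SNHG8 and SNHG12 followed at the 86.0th, 84.4th and 81.25th. SNHG15 was at the 52.6th, with 18 counts beside a group median of 17. Only listed genes enter these groups, and a gene under 6 counts is not listed, so the position among all transcribed genes would differ.

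Listed snoRNAs lay inside 5 of the 10 host intervals and took a share of the count far above their share of the length. There were 7 of them: 6 of the 90 genes of the snoRNA class, and SNORD87, which the table annotates as sense overlapping. Together they spanned 571 bases, 2.24% of the 5 intervals, and held 178 counts, 24.0% of the 743 counts of these hosts (20.9 to 27.2%). Listing itself calls for such an excess. At the density of the rest of each host, its listed snoRNAs would hold 0.709 (SNHG12) to 4.74 counts (ZFAS1), below the minimum of 6 for a listed gene. The size of the shares is therefore described here, and the excess as such shows nothing about these snoRNAs. A read in a snoRNA enters the host count as well, as far as the table shows: in 2435 pairs where 1 listed interval lies inside another, the inner gene had the higher count in 0. Whether such a read came from the host transcript or from the finished snoRNA cannot be told apart in these counts.

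**Figure D3:**
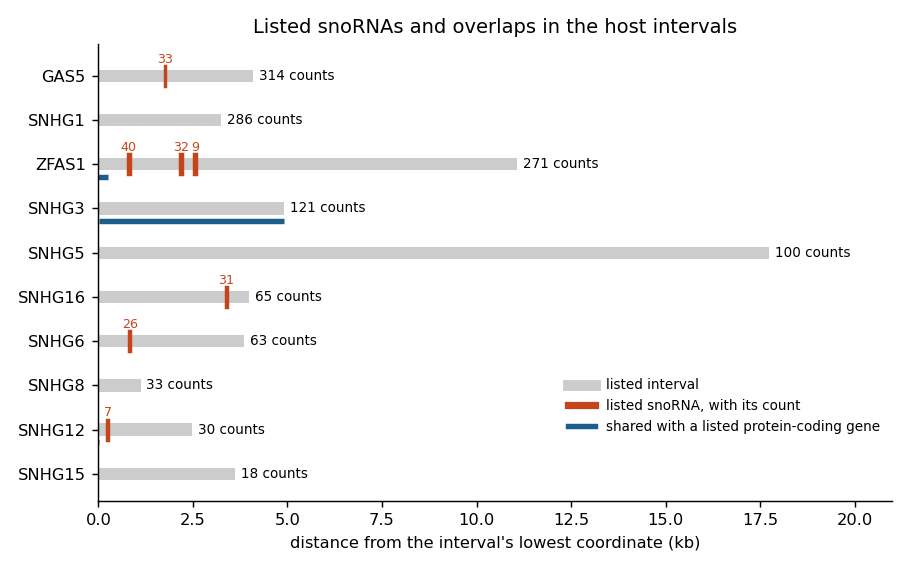
The 10 host intervals to scale, as distance in kb from the lowest coordinate, with listed snoRNAs in red, their counts above them, and stretches shared with a listed protein-coding gene in blue (2 bases in SNHG12, too short to see). The 7 listed snoRNAs lie in GAS5, ZFAS1, SNHG16, SNHG6 and SNHG12, and SNHG3 is shared over nearly its whole length.

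ZFAS1 held 3 listed snoRNAs, the whole of the family known for it. SNORD12C had 40 counts (28.6 to 54.5) in 89 bases of chromosome 20 (47895477 to 47895565). SNORD12B had 32 (21.9 to 45.2) in 91 bases (47896856 to 47896946). SNORD12 had 9 (4.12 to 17.1) in 90 bases (47897220 to 47897309). The intervals of the first 2 overlapped, and both counts exceeded the last, whose interval does not reach theirs. These 3 snoRNAs held 29.9% of the ZFAS1 count (24.5 to 35.7%) in 2.44% of its length. At the density of the rest of ZFAS1 that length would hold 4.74 counts.

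SNORD1B, a box C/D snoRNA, took the largest share among the 10 hosts. It had 31 counts (21.1 to 44.0) in 84 bases of chromosome 17 (74557191 to 74557274), 47.7% of the SNHG16 count (35.1 to 60.5%). Without it SNHG16 held 34 counts and dropped from the 92.3rd to the 76.7th percentile for its length. SNORD87 had 26 counts (17.0 to 38.1) in 78 bases of chromosome 8 (67834709 to 67834786), 41.3% of the SNHG6 count (29.0 to 54.4%). Without it SNHG6 held 37 counts and came to the 77.6th percentile. In both hosts the listed snoRNA covers about the same part of the interval, 2.11% and 2.02%.

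The snoRNA share was lower in GAS5 and little resolved in SNHG12. In GAS5 a gene of the snoRNA class with no symbol in the name table, ENSG00000208317, had 33 counts (22.7 to 46.3) in 65 bases (173834760 to 173834824). It held 10.5% of the GAS5 count (7.35 to 14.4%) in 1.59% of its length, and 281 counts lay outside it. In SNHG12, SNORD99 had 7 counts (2.81 to 14.4) in 74 bases (28905261 to 28905334), 23.3% of the host count (9.93 to 42.3%). Outside the listed snoRNAs the density was 69.8 counts per kb in GAS5, 17.6 in ZFAS1, 9.79 in SNHG6, 9.59 in SNHG12 and 8.71 in SNHG16. With listed snoRNAs set aside, GAS5 and SNHG1 stayed the densest of the set. The subtraction was uneven, however. All 3 snoRNAs known for ZFAS1 were taken out, but only ENSG00000208317 in GAS5, for which 10 are known. In SNHG1 0 of 8 known snoRNAs were listed. The densities of GAS5 and SNHG1 may thus still hold snoRNA reads, and the densities are not free of snoRNAs to the same degree.

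**Figure D4:**
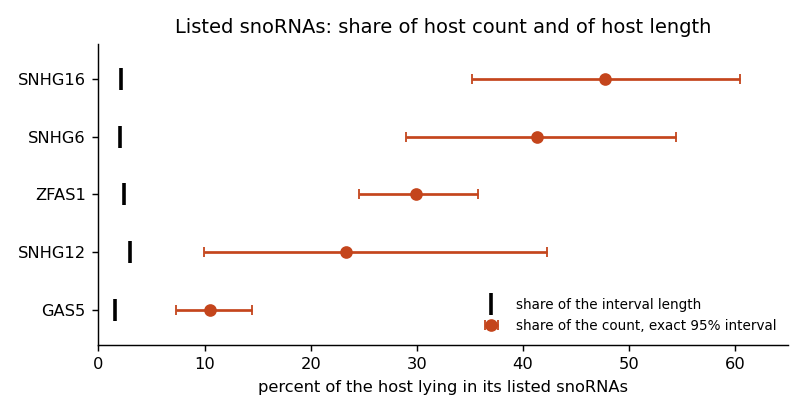
Share of each host's count that lay in its listed snoRNAs (points, exact 95% Clopper-Pearson intervals) and their share of the interval's length (black ticks), in percent. The count shares run from 10.5% in GAS5 to 47.7% in SNHG16, and each interval lies above the tick.

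No listed snoRNA lay in SNHG1, SNHG3, SNHG5, SNHG8 or SNHG15. Of 35 snoRNAs known for the 10 hosts, 25 symbols could be paired with an identifier and 6 were listed. The unpaired 10 include 8 of the 10 snoRNAs of GAS5. The identifiers of other snoRNAs may differ from those of the table, and the sources used here do not say whether each was counted. No level can be read from their absence, although by position no listed gene of any class lies inside the SNHG1 interval.

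A high density in listed snoRNAs was not particular to these hosts. The table held 84 snoRNA or scaRNA genes that lay inside another listed gene, and in 82 the density exceeded that of the rest of the host. The 7 in the hosts described had a median ratio of 16.2 and the 77 in other genes a median of 10.3. Their median counts were 31 and 14. Because a snoRNA needs 6 counts to be listed and is short, listing alone calls for a high density.

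Beside snoRNAs, 3 hosts overlapped a listed protein-coding gene, and reads in the shared stretch may enter both counts. Of all listed genes 40.8% overlapped another listed gene of any class, snoRNAs included. SNHG3 shared 4903 of its 4913 bases with RCC1, the chromatin-bound exchange factor for the GTPase Ran. RCC1 had 179 counts over 29.9 kb, and the SNHG3 count corresponds to 67.6% of that in 16.4% of the RCC1 length. The rest of RCC1 would then hold 58 counts over 25.0 kb, or 2.32 per kb, beside 24.6 per kb in SNHG3. Which of the pair the 121 counts came from cannot be told apart. ZFAS1 shared 249 bases, 2.25% of its length, with ZNFX1, a zinc-finger helicase gene with 515 counts. SNHG12 shared 2 bases with TRNAU1AP, which acts in selenocysteine incorporation and had 8 counts.

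Genes beside the hosts showed no common level. SLC3A2, for a subunit of amino acid transporters, lies 0.865 kb from SNHG1 and had 888 counts, or 27.2 per kb, beside 88.0 per kb in SNHG1. ZBTB37, a zinc-finger gene 92 bases from GAS5, had 52 counts and 2.80 per kb. PRSS12, for a secreted serine protease 214 bases from SNHG8, had 68 counts and 0.932 per kb. SNHG3 lay 5.61 kb from PHACTR4, a gene of actin and phosphatase regulation with 368 counts. SNHG16 lay between PRCD, a gene of photoreceptor discs with 9 counts, and ST6GALNAC2, a sialyltransferase gene with 71, and SNHG12 lay 8.31 kb from TAF12, a subunit of the basal transcription factor TFIID, with 6. Around SNHG5, SNHG6 and SNHG15 no listed gene lay within 10 kb outside the interval.

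Protein-coding snoRNA hosts were the most alike group for comparison. All 43 of a list of them were listed, with a median of 147 counts against 82.5 in the non-coding hosts, but over longer intervals (median 6.87 kb against 3.92 kb). Per kb the medians were 17.9 and 20.4, values that are not matched for length. Among listed genes of similar length the order was reversed. The median percentile was 96.8 in the coding hosts and 91.9 in the non-coding hosts. Of the 43 coding hosts 42 lay above the median of their length group, where 50% of listed genes do. Whether each listed interval spans the whole gene was not checked, so counts, lengths and values per kb hold for the interval as listed. Among the highest counts of the list were those of NCL, for nucleolin, with 819, CHD4, a chromatin remodeller, with 666, IPO7, an importin, with 479 and WDR43, a ribosome assembly factor, with 436. The lowest were in RPL17 with 17, RPS13 with 13 and EIF4A2 with 13, the last over a listed interval of only 1.455 kb. GAS5 at 76.8 and SNHG1 at 88.0 counts per kb lay among the densest coding hosts, near NCL at 74.0 and HSPA8, a heat shock chaperone gene, at 88.6. Of the coding hosts 28 had 100 counts or more (65.1%, beside 20.5% of all listed genes), and 9 overlapped a listed gene that is not a snoRNA. Genes are not replicates, so the difference between the lists was not tested.

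**Figure D5:**
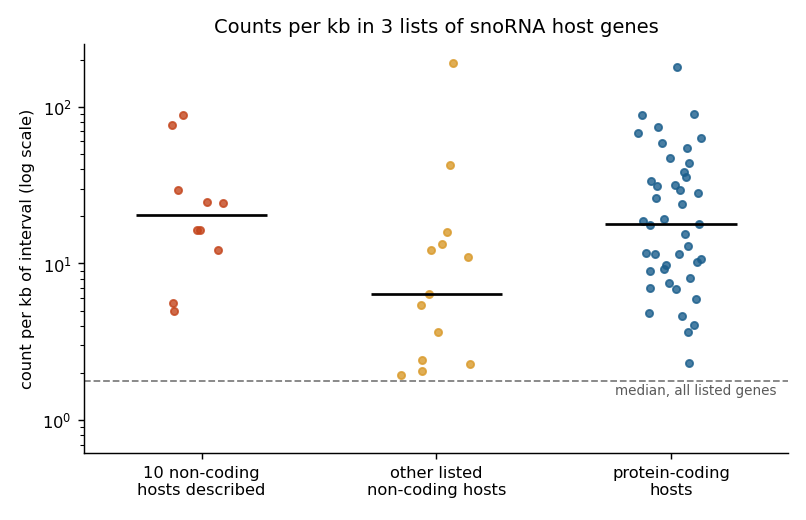
Counts per kb of interval (log scale) for the 10 non-coding hosts, 13 other listed non-coding hosts and 43 protein-coding hosts. Each point is a gene, black lines are medians (20.4, 6.42 and 17.9) and the dashed line is the median of all listed genes (1.78), which is not matched for length.

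Other non-coding hosts of snoRNAs were lower and less completely listed. Of 17 such genes 13 were listed, with a median of 37 counts and 6.42 per kb, and SNHG4, SNHG9, SNHG10 and MEG8 were absent. SNHG29 had 203 counts over 31.6 kb and SNHG17 127 over 10.5 kb. SNHG14, a host in the imprinted Prader-Willi region, had 153 over a listed interval of 42.1 kb. Whether these intervals span the whole genes was not checked either. SNHG32, annotated as protein-coding in the table, had 69. SNHG25 had 65 counts in an interval of 0.34 kb. EPB41L4A-AS1 had 41, SNHG7 37, DANCR 27, SNHG19 24, SNHG20 17, SNHG30 13, SNHG18 10 and SNHG11 9. Of the 13 genes, 3 had 100 counts or more (23.1%), near the 20.5% of all listed genes, and 9 lay above the median for their length, where 50% of listed genes do. Overlap with a listed gene that is not a snoRNA was found for 4: SNHG29, EPB41L4A-AS1, SNHG7 and SNHG20.

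The starts of the host genes were read from RefSeq, which lists promoters in GRCh38.p14, another build than the table's. A tract that opens with C, goes on with at least 4 C or T and begins within 10 bases of the annotated start was found in 5 of the 8 hosts with a sequence used here. The share was 33.5% of all 35116 promoters and 57.5% of 40 coding hosts. Windows of 50 bases, 30 before the start and 20 from it, are shown for 3 hosts with a tract at the start itself and for SNHG1, the densest host, which has none by this rule. They are written on the gene's strand, with the tract in capitals.
SNHG12, chr1:28581854-28581903, minus strand: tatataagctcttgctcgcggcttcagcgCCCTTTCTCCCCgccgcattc
ZFAS1, chr20:49278612-49278661, plus strand: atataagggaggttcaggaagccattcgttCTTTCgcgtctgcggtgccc
SNHG5, chr6:85678714-85678763, minus strand: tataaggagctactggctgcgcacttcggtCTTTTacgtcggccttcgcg
SNHG1, chr11:62855866-62855915, minus strand: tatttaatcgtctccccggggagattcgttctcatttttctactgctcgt
The longest tract, of 12 bases, belonged to SNHG12, and those of ZFAS1 and SNHG5 had 5. SNHG16 and SNHG8 had tracts of 6 bases that began 5 bases after and 5 bases before the start. GAS5 and SNHG3 had none within this window. The table used gives 1 start per gene, which need not be the start of the listed interval. The letters CCCTC, part of the sequence that CTCF binds in DNA, occurred on either strand of the 300-base promoter in 6 of 8 hosts and in 71.2% of all promoters. TATAAA on the gene's strand occurred in 0 of 8 and in 7.33% of all promoters. Only this exact string was counted. The windows of SNHG12, ZFAS1 and SNHG5 shown above hold the near form tataag close to their first base, so TATA-like sequences are not absent. SNHG6 and SNHG15 are named only.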

How the data were processed

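PAR-CLIP of CTCF was measured in U2OS cells. The authors deposited raw counts, 1 whole number per Ensembl gene interval, for the merge of 2 biological replicates, per the labels. Bowtie, bedtools and the build hg19 are named in the submitters' processing notes, but the sources used here give neither versions nor roles, nor what was counted. Reads in places shared by genes may enter several counts.

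Identifiers were paired with symbols for 16520 of 17201 genes. The members and gene lists were chosen with earlier results of these data known. Named genes are all 10 members, listed snoRNAs inside and genes overlapping them, the nearest listed gene on each side within 10 kb, the 5 highest and 3 lowest coding hosts, and all other listed non-coding hosts. HSPA8 was named after its value was seen, and 2 genes that this rule names are not reported here. Python 3.11.15, pandas 2.3.3 and SciPy 1.17.1 gave exact 95% Poisson intervals for counts, Clopper-Pearson intervals for shares, and percentiles within 50 length groups. The percentile step was tested on simulated data. No p-value was computed, because 1 merged sample allows no test. Coordinates are 1-based in hg19, as the table gives them. Sequences are from RefSeq, GRCh38.p14, which held 8 of the members used here. Alternatives changed the scale, the threshold, the reference genes and the treatment of overlaps and snoRNAs.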

Additional observations from a re-analysis of the deposited data

How the results depend on the processing

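The alternatives that set aside other overlapping genes than snoRNAs, the percentile within a class or without snoRNAs, and the minimum of 10 counts for other hosts were chosen after seeing the data. The median of the 10 hosts was 82.5 counts. It was 20.4 per kb, 65 over the 7 hosts that overlap no listed gene but snoRNAs, 66.5 over the 4 that overlap none, and 68.5 with listed snoRNA counts subtracted. Of the 10 hosts 5 had 100 counts or more, 3 had 200 or more (8.94% of all listed genes), and 2 of the 4 that overlap no listed gene had 100 or more (19.5% of listed genes without overlap). The median percentile for length was 91.9. It was 96.7 among long non-coding genes of similar length and 78.6 among genes of the same class at any length. With the other alternatives it lay between 85.2 and 90.6. Under each of these the 10 hosts stayed above 50. The coding hosts had a median of 147 counts and 17.9 per kb. Overlap with a listed gene was found for 6 hosts (40.8% of all listed genes overlap another), and for 3 with snoRNAs left out. Subtracting listed snoRNAs put SNHG1 (286) above GAS5 (281) and SNHG6 (37) above SNHG16 (34), and neither pair was resolved in either order. It resolved GAS5 (281) from ZFAS1 (190) and ended the step from SNHG6 (37) to SNHG8 (33). Known snoRNAs that were not listed, among them most of those of GAS5, were not subtracted. These changes of order may therefore depend on which snoRNAs were listed. No paired analysis was possible because the table holds the merge of both replicates and no value for either, and leaving out a replicate was not run for the same reason. Depth limits SNHG8, SNHG12 and SNHG15, where neither neighbouring pair was resolved.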

Other observations

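The following snoRNAs were chosen after their values were seen. SNORD104 had 46 of the 65 counts of SNHG25, SNORD60 had 15 of the 24 counts of SNHG19, and SNORD52 had 23 of the 69 counts of SNHG32. SNORD93 had 8 of the 43 counts of SNHG26, a host outside the lists used above. Inside no listed gene lay 11 snoRNAs or scaRNAs with counts of 6 to 41, among them SNORD37 with 41, SNORD2 with 27 and SNORD38B with 25.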
